A study of Mus musculus with 10 samples.

Results

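The 70 protein-coding genes described here encode the semaphorins, ephrins, Slits and netrins and the receptors that read them, out of 25006 genes counted in each library. They were chosen by symbol: Sema followed by a digit, Plxn, Efna, Efnb, Epha, Ephb, Slit1 to Slit3, Robo, Ntn followed by a digit, Unc5, Nrp1, Nrp2 and Dcc. The Unc5 name start also takes in Unc50 and Unc5cl, which are not netrin receptors, so 68 of the 70 are guidance ligands or receptors proper. Measured values played no part in the choice, although it was made with earlier results of these data known.

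Each of 10 libraries holds 1 neuron of the nucleus of the solitary tract, where sensory fibres from the viscera end in the brainstem. The neurons were aspirated, cytoplasm and nucleus together, from 285-micron brainstem slices of 3-month-old C57BL/6 mice carrying LepRb-Cre and Halo-eYFP, in which cells that express the leptin receptor make a yellow fluorescent protein. By firing property the labels give 5 neurons as type 2 (6-2, 10-1, 10-3, 9-2 and 9-4) and 5 as type 1 (1-1, 1-2, 4-3, 8-2 and 9-1). All 10 neurons carry the same alleles and no treatment is named, the firing properties themselves are not described, and a Cre reporter can also mark a cell whose Lepr promoter was active at an earlier time. What the leading numbers in the neuron names stand for is not given in the sources used here.

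Axon guidance genes encode secreted or membrane-bound cues and the receptors on the growing axon that read them. Class 3 semaphorins are secreted and bind neuropilins that signal through plexins, while class 4 and class 6 semaphorins are membrane proteins that bind plexins directly. Ephrins are membrane-bound ligands of the Eph receptor tyrosine kinases, Slits repel axons through Robo receptors, and netrins attract through Dcc and repel through Unc5 receptors. In the adult nervous system many of these genes stay active and are known for roles at synapses and in the upkeep of connections.

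Gene counts per library were 12195253 to 41608996 in type 2 neurons and 9796799 to 41844825 in type 1 neurons. Of the type 2 libraries 4 exceeded 20000000 counts (10-1, 10-3, 9-2 and 9-4), against 2 of the type 1 libraries (8-2 and 9-1). Levels are counts scaled to the library total (CPM). A gene was called detected where it reached 10 CPM and had 3 or more counts. The labels do not say which animal a neuron came from, so each type stands for 1 sample. No test between types was made, and the SD given is the spread between 5 cells. A difference is the mean log2(CPM + 1) of type 2 neurons less that of type 1 neurons, a scale that understates the change of low genes. Of 6 neuronal markers, Snap25, Tubb3, Stmn2 and Slc17a6 were detected in all 10 neurons. Rbfox3 was detected in 2 type 2 and 5 type 1 neurons (difference -3.56) and Syt1 in 4 and 3 (difference 2.13). Snap25 was at 2319 to 3123 CPM in type 2 neurons and 1546 to 2885 CPM in type 1 neurons. Lepr itself reached 10 CPM in 4 type 2 neurons (29.4 to 50.7 CPM, with 0.890 CPM in 9-4) and in type 1 neurons 1-1 and 4-3 (121.9 and 59.8 CPM, with 1.15 to 5.09 CPM in the other 3). The astrocyte transporter Slc1a3 and the oligodendrocyte factors Olig2 and Sox10 had 0 counts in all 10. Microglial transcripts were uneven. The 14 genes of that list summed to 1786, 4.16, 47.6, 492 and 1577 CPM in type 2 neurons 6-2, 10-1, 10-3, 9-2 and 9-4, against 894 CPM in type 1 neuron 1-2 and from 0.0668 up to 59.5 CPM among the remaining type 1 neurons.

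Guidance genes were present in every neuron, as a different subset in each. Counts were 0 in all 10 neurons for 15 members, and 48 members were detected in at least 1 neuron. Of those 48, 22 were detected in 1 to 3 neurons, 18 in 4 to 6 and 8 in 7 to 9; Unc50 reached 9 and no member was detected in all 10. Type 2 neurons had 14 to 25 members detected (19.6 ± 4.04, SD, n = 5) and type 1 neurons 17 to 21 (19.4 ± 1.52, n = 5). The fewest were in 10-1 and the most in 9-4, both type 2. Of all 25006 genes, 5993 to 7367 were detected per type 2 neuron and 5315 to 7073 per type 1 neuron. These counts were 21.3% to 29.5% of all genes. The members' share was 35.7% in 9-4, beside 26.8% of all genes there, and in 10-1 it was below the 24.5% of all genes. Whether the detected subset varied more between neurons than for other genes was not tested. The members with 0 counts were Efna1, Efna4, Epha1, Epha8, Ntn5, Plxnb3, Plxnd1, Robo4, Sema3b, Sema3d, Sema3g, Sema4c, Sema5b, Unc5b and Unc5cl. As counting error, 0 counts allow up to 0.0721 to 0.246 CPM across type 2 libraries and 0.0717 to 0.306 CPM across type 1 libraries, which leaves aside RNA that never entered the library.

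Levels lay mostly at 10 CPM or more or under 1 CPM, for the members as for all genes. Over all 10 neurons and the 48 members that averaged 1 CPM or more, 40.6% of 480 values were at 10 CPM or more, 11.9% lay from 1 to under 10 CPM, 20.4% were above 0 and under 1 CPM, and 27.1% were 0. For all 11923 genes that passed the same filter those shares were 52.7%, 7.26%, 15.3% and 24.8%. The guidance members thus had a smaller share of values at 10 CPM or more and larger shares in each lower range, including the intermediate ones. Their median level was also lower, at 26.1 CPM against 34.4 CPM for all genes passing the filter.

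**Figure D1:**
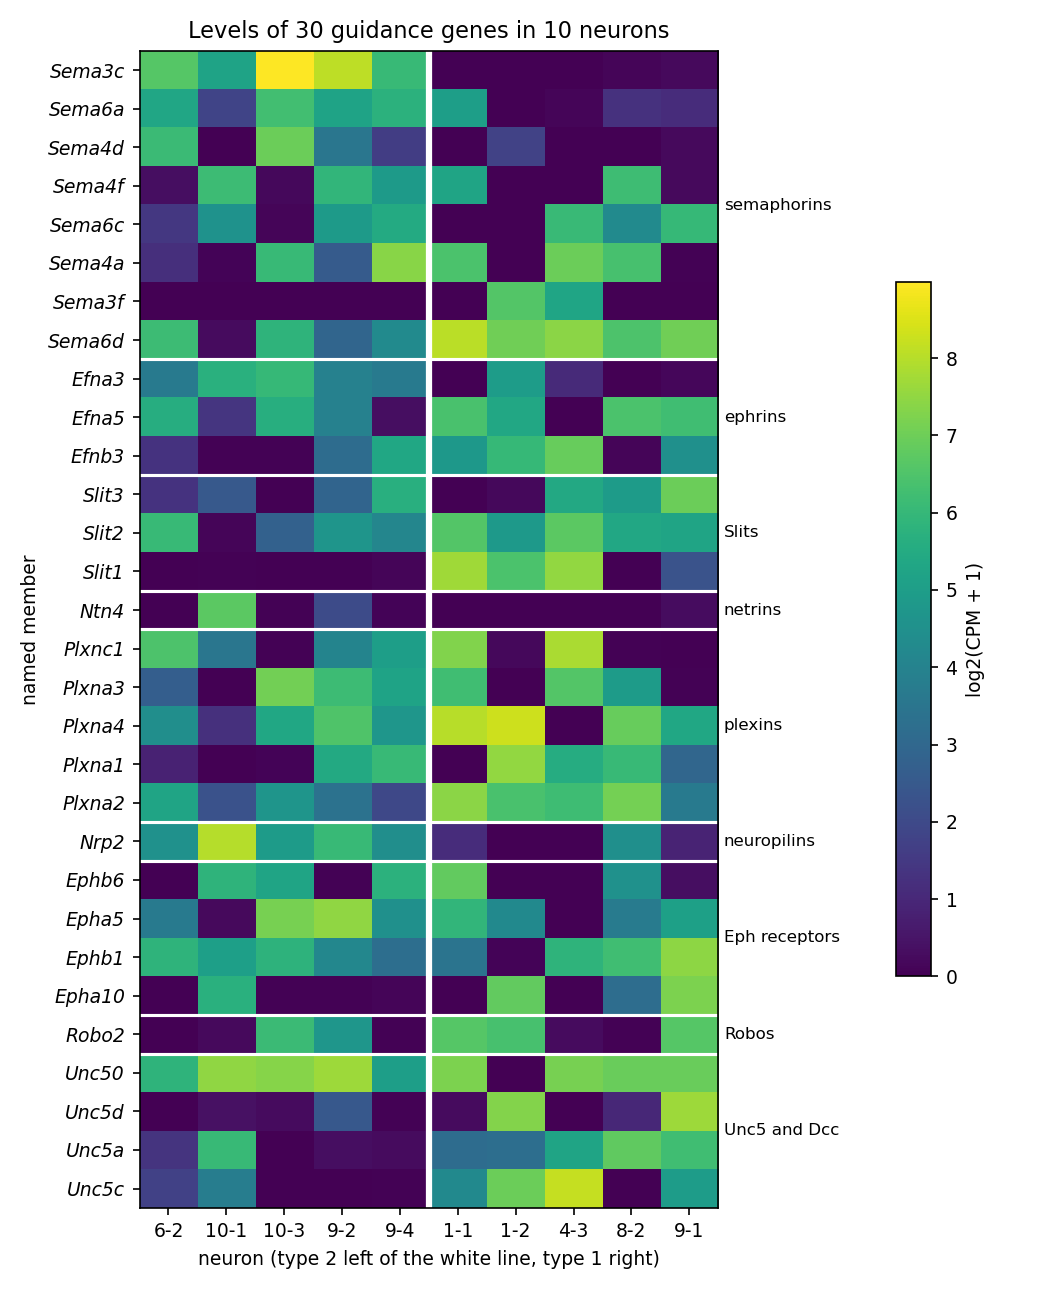
Level of the 30 named members (rows, grouped by family, Unc50 placed with the Unc5 names) in each neuron (columns, type 2 left and type 1 right), coloured by log2(CPM + 1). Sema3c is bright in all 5 type 2 columns and dark in all 5 type 1 columns, while most rows are bright in some neurons of both types.

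**Figure D2:**
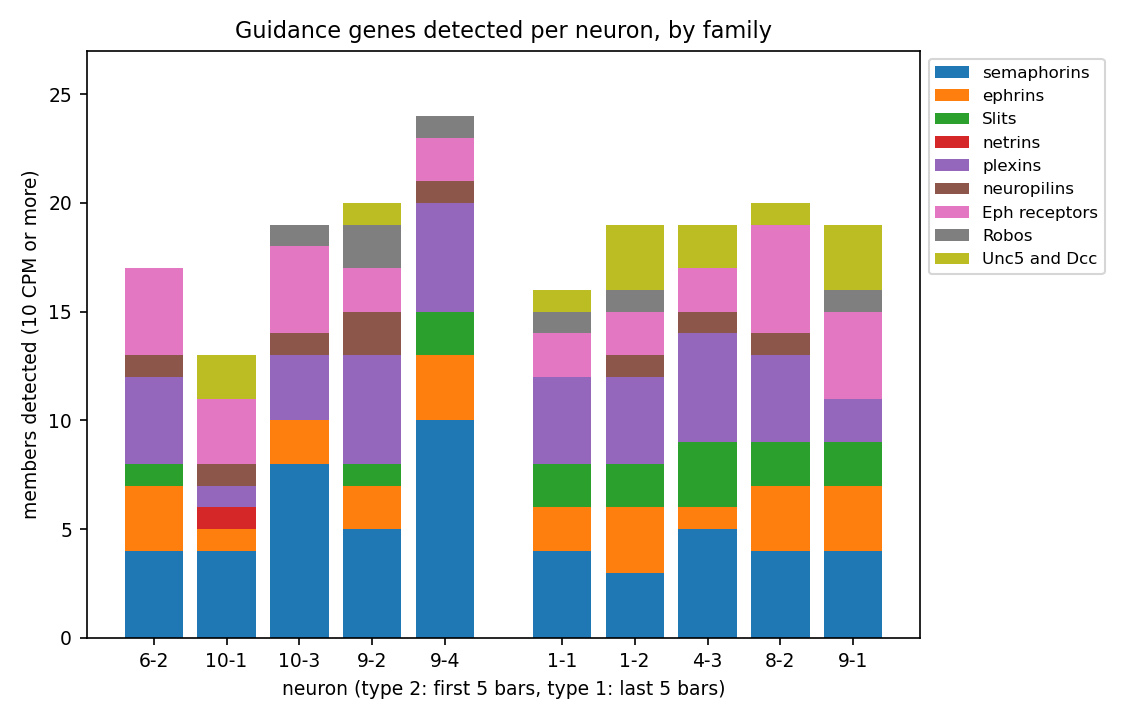
Number of members at 10 CPM or more in each neuron (bars, type 2 first), stacked by family and without Unc50 and Unc5cl. Semaphorins give 4 to 10 of the members per type 2 neuron and 3 to 5 per type 1 neuron, and Slits give 0 to 2 and 2 to 3.

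A difference of 2 or more on the log2 scale, taken as past 4-fold, was found in 15 of the 48 members that passed the filter. Higher in type 2 were 5 of the 48 (10.4%), beside 13.5% of all 11923 genes, and higher in type 1 were 10 (20.8%), beside 7.78% of all genes. The first group is Sema3c, Nrp2, Efna3, Sema6a and Sema4d. The second is Slit1, Unc5c, Unc5a, Sema6d, Plxna2, Unc5d, Efnb3, Sema3f, Epha10 and Slit2. The nearest member inside the limit was Slit2 (-2.20) and the nearest outside was Plxna1 (-1.94). The median difference over the 48 was 0.02, against 0.24 over all genes. Among the 35 members that averaged 10 CPM or more the counts were again 5 and 10, beside 16.1% and 9.53% of the 9212 genes at that level.

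Both groups contain ligands and receptors, and semaphorins and ephrins stand in both. A semaphorin with its co-receptor headed the type 2 group, and Slit1 with Unc5 receptors headed the type 1 group. The promoters shown are those of the 3 members furthest apart in each direction that the RefSeq table holds. Slit1 is named only, and each sequence runs from 250 bases before to 50 after the most upstream transcription start in the table. Build GRCm38.p6 places them at chr5:17574566-17574865 (plus strand, Sema3c), chr1:62703067-62703366 (plus, Nrp2), chr3:89322890-89323189 (minus, Efna3), chr3:141465314-141465613 (plus, Unc5c), chr13:54949161-54949460 (plus, Unc5a) and chr2:124089719-124090018 (plus, Sema6d). Capitals mark the GC box GGGCGG or its complement CCGCCC.
Sema3c: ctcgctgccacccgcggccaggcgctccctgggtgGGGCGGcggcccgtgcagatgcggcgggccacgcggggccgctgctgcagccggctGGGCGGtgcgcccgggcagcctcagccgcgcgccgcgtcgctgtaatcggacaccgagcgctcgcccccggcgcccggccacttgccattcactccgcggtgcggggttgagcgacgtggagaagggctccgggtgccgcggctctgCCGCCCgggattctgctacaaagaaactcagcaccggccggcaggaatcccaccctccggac
Nrp2: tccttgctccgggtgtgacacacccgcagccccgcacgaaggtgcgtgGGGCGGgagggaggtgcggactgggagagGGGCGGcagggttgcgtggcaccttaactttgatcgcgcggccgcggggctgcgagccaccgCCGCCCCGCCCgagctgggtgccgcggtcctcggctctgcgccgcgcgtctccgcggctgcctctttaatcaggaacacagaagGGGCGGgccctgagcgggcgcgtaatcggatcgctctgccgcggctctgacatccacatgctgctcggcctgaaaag
Efna3: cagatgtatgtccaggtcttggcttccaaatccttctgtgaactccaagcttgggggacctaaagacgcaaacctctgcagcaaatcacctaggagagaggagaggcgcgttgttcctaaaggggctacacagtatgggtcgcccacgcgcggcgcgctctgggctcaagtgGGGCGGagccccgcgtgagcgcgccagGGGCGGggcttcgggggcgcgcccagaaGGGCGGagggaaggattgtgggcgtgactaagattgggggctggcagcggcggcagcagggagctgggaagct
Unc5c: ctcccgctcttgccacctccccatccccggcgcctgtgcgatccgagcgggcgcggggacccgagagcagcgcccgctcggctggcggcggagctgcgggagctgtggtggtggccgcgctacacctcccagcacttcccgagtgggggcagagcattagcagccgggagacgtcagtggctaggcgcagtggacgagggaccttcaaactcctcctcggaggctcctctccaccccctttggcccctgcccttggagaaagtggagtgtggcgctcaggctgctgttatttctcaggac
Unc5a: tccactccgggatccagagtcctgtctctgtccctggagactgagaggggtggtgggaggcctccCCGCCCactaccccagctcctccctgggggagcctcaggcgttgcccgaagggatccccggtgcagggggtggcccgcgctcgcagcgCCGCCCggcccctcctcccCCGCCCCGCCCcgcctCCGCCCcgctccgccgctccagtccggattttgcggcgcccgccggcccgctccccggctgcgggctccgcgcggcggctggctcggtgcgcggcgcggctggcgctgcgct
Sema6d: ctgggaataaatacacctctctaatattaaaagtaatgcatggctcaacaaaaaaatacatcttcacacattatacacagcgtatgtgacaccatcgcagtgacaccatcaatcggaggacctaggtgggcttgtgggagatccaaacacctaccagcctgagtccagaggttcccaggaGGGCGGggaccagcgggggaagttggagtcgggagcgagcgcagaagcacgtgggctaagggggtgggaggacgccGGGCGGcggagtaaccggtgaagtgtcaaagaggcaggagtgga
GC boxes, counted with overlaps on both strands, numbered 3 in the Sema3c promoter, 5 in Nrp2 and 3 in Efna3, against 0 in Unc5c, 5 in Unc5a and 2 in Sema6d. At least 1 is found in 35.7% of the 32851 promoters of the same length in the table. The TATA box TATAAA, present in 13.6% of all promoters, and the cAMP response element TGACGTCA, present in 1.79%, had no match in any of the 6. The CCAAT box, present in 37.4%, had 1 match, in Efna3. Bases G and C made up 54.3% (Sema6d) to 78.3% (Unc5a) of the 6, against a median of 52.7%.

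Among the class 3 semaphorins, Sema3c separated the types most. Sema3c (ENSMUSG00000028780, GRCm38 chromosome 5, 17574281 to 17730268, plus strand) encodes a secreted ligand of neuropilins. It was at 96.8, 36, 505, 274 and 65.6 CPM in type 2 neurons 6-2, 10-1, 10-3, 9-2 and 9-4, against 0, 0, 0, 0.0956 and 0.159 CPM in type 1 neurons 1-1, 1-2, 4-3, 8-2 and 9-1. Every type 2 neuron therefore lay above every type 1 neuron, as for 1 of the 48 members (2.08%) beside 1.44% of all genes. The difference was 6.92, and it was 6.92 in the libraries over 20000000 counts, 6.61 in those under it and 6.87 among the neurons numbered 9. Pooling the reads of each type put Sema3c at 206 CPM in type 2, with an exact Poisson 95% interval from 203 to 208. Type 1 came to 0.0805 CPM, with 0.0368 to 0.153 as bounds, and such intervals cover counting error only.

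Sema3f, which acts mainly through Nrp2, showed the reverse in fewer cells. It had 0 counts in all 5 type 2 neurons, against 93.7 CPM in 1-2, 38.1 CPM in 4-3 and 0 in the other 3 type 1 neurons. Its summed level in type 1 was at least 747-fold higher than 3 counts over the type 2 libraries, but both positive libraries were under 20000000 counts. Without 1-2 the difference was -1.32 and without 4-3 it was -1.64, against -2.37 over all neurons. Sema3a, a repellent that binds Nrp1, was detected in 1 neuron, type 2 neuron 10-3, at 72.5 CPM, and was between 0.288 and 6.28 CPM in the other 9. Sema3e had at most 0.604 CPM.

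Class 4 and class 6 semaphorins split by member. Sema4d, a membrane ligand of class B plexins, was at 68.5, 0, 124, 10.5 and 2.13 CPM in type 2 neurons 6-2, 10-1, 10-3, 9-2 and 9-4, against 2.45 CPM in type 1 neuron 1-2 and 0.159 CPM or less in the other 4 (difference 3.25). Detection was reached in 3 type 2 neurons and in 0 type 1 neurons, and the ranges overlapped. The microglial sum was high in 6-2, and its part in the Sema4d values was not tested; without 6-2, 9-2 and 9-4 the difference was 3.08. Sema4a and Sema4f, of the same class, were detected in 2 and 3 type 2 neurons and in 3 and 2 type 1 neurons (differences -0.50 and 1.17). Both spanned 0 or near 0 to over 60 CPM within each type. Sema4b reached 58.4 CPM in type 2 neuron 9-4 and stayed under 10 CPM in all others, and Sema4g was detected in 10-3 and 9-4 of type 2 (47.5 and 33.8 CPM) and 9-1 of type 1 (64.9 CPM).

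Sema6d and Sema6a, transmembrane ligands of class A plexins, differed in opposite directions. Sema6d (ENSMUSG00000027200, chromosome 2, 124089969 to 124667770, plus strand) was at 71.1, 0.192, 56.0, 6.66 and 18.8 CPM in type 2 neurons in the order above, against 267, 129, 169, 87.8 and 131 CPM in type 1 neurons. All type 1 values exceeded all type 2 values, which held for 1 of the 48 members (2.08%) beside 0.587% of all genes. The difference was -3.30, with -3.43 in the libraries over 20000000 counts and -1.33 in those under it, where 6-2 is the lone type 2 library. Sema6a was at 38.9, 2.57, 75.7, 36 and 53.9 CPM in type 2 neurons, against 32.1, 0, 0.102, 1.43 and 1.21 CPM in type 1 neurons (difference 3.36). Detection thus failed in 10-1 alone among type 2 neurons and was reached in 1-1 alone among type 1 neurons. Sema6c had close mean log2 levels in the types (difference 0.02), averaging 19.6 ± 18.8 CPM among type 2 neurons and 29.9 ± 33.3 CPM among type 1 neurons (SD, n = 5 each). Sema6b was detected in 10-1 and 9-4 of type 2 (21.7 and 37.6 CPM) and in 4-3 and 9-1 of type 1 (12.9 and 12.4 CPM). Of the other classes, Sema5a reached 29.3 CPM in 9-4 and 59.2 CPM in 1-2, and Sema7a 104 CPM in 10-3, with no other neuron of either gene detected.

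**Figure D3:**
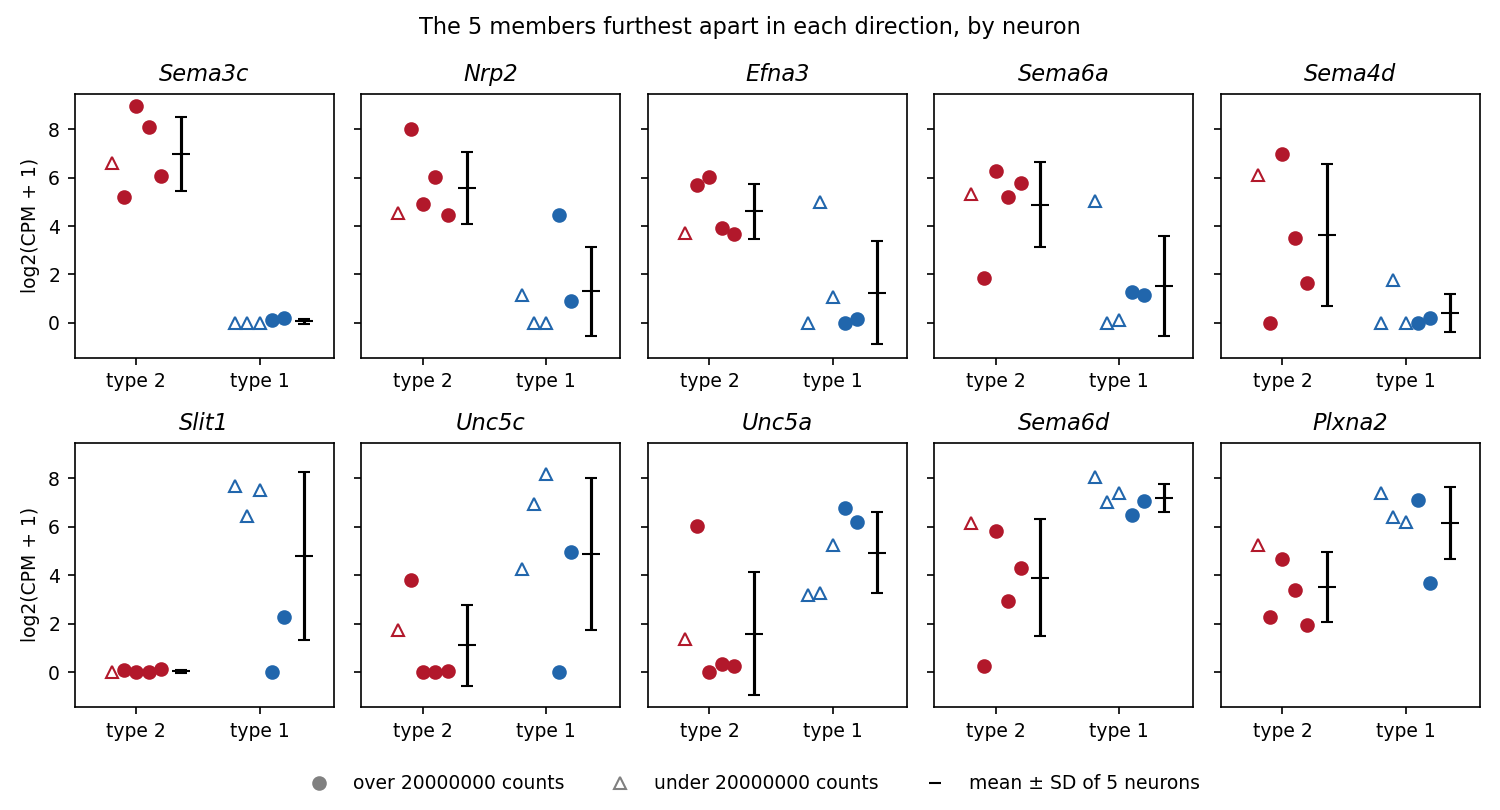
log2(CPM + 1) of the 5 members furthest apart in each direction, 1 point per neuron, type 2 left and type 1 right in each panel, with bars for the mean ± SD of 5 neurons and open triangles for libraries under 20000000 counts. Sema3c and Sema6d do not overlap between types, and the 3 high Slit1 values are all in type 1 libraries under 20000000 counts.

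The ephrins showed one member on each side. Efna3, an ephrin A tethered to the membrane by a lipid anchor, was at 12.1, 50.8, 64.0, 14.3 and 11.9 CPM in type 2 neurons, against 0, 30.5, 1.12, 0 and 0.127 CPM in type 1 neurons (difference 3.36). All 5 type 2 neurons were at 10 CPM or more, 3 of them close to that limit, and 1-2 was the 1 type 1 neuron that overlapped them. The difference was 4.75 in the libraries over 20000000 counts and 1.68, short of 4-fold, in those under it. Efnb3, a transmembrane ephrin B, was at 1.48, 0.0481, 0.0276, 7.96 and 40.2 CPM in type 2 neurons, against 26.8, 63.5, 119, 0.0956 and 21.7 CPM in type 1 neurons (difference -2.48). Its highest values were in 1-2 and 4-3, both under 20000000 counts, and the difference was -0.16 in the libraries over 20000000 counts and -4.60 in those under it. Efna5 was detected in 3 type 2 and 4 type 1 neurons (difference -1.51), while Efna2, Efnb1 and Efnb2 were each detected in 1 or 2 neurons.

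All 3 Slit genes had the higher mean in type 1, and 2 of them passed 4-fold. Slit1 (ENSMUSG00000025020, chromosome 19, 41600257 to 41743665, minus strand) was at 0, 0.0481, 0, 0 and 0.0954 CPM in type 2 neurons, against 207, 86.7, 184, 0 and 3.89 CPM in type 1 neurons (difference -4.75). The 3 high type 1 values were in 1-1, 1-2 and 4-3. These are the 3 type 1 libraries under 20000000 counts, so the difference was -7.23 in that depth set and -1.09 in the other, where Slit1 was detected in no neuron. Slit2 was at 66.0, 0.0961, 5.88, 24.9 and 16.5 CPM in type 2 neurons, against 95.4, 27.9, 105, 40.7 and 36.8 CPM in type 1 neurons (difference -2.20). All type 1 neurons had Slit2 detected, but 6-2 lay within their range; without 10-1 the difference was -1.34, without 1-1 it was -1.99 and without 4-3 it was -1.96. In the libraries under 20000000 counts it was 0.01. Slit3 was detected in 1 type 2 and 3 type 1 neurons (12.5 ± 20.9 and 39.3 ± 51.3 CPM, difference -1.03). At least 1 Slit was detected in 3 type 2 and in 5 type 1 neurons, which had 2 or 3 of the 3 each.

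Netrins were nearly missing from these neurons. Ntn4, which binds laminin and is found in basement membranes, was at 103 CPM in type 2 neuron 10-1, 3.12 CPM in 9-2 and at most 0.223 CPM in the other 8. Ntn1, the best known attractant of the family, had 2 counts in all, both in type 1 neuron 9-1.

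Of the neuropilins, the co-receptors of class 3 semaphorins, 1 of 2 members was past 4-fold higher in type 2, as Sema3c was. Nrp2 (ENSMUSG00000025969, chromosome 1, 62703285 to 62818695, plus strand) was at 22.1, 254, 29.5, 65.0 and 20.7 CPM in type 2 neurons, against 1.20, 0, 0, 21.3 and 0.860 CPM in type 1 neurons (difference 4.29). All 5 type 2 neurons had it detected, and 1 of the 5 type 1 neurons did. Type 1 neuron 8-2 overlapped the low end of the type 2 range. Within type 2, Nrp2 was highest in 10-1, where Sema3c was lowest (36 CPM). The difference was 3.17 in libraries over 20000000 counts, 4.15 in those under it and 4.35 among neurons numbered 9. Nrp1 was detected in 9-2 of type 2, at 34.7 CPM, and in 1-2 and 4-3 of type 1, at 19.0 and 25.8 CPM.

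Plexins, the signalling receptors for semaphorins, were detected in all 10 neurons, with 1 to 5 members in type 2 and 2 to 5 in type 1. Plxna2 was at 36.8, 3.80, 24.8, 9.57 and 2.83 CPM in type 2 neurons, against 169, 84.6, 71.7, 138 and 11.7 CPM in type 1 neurons (difference -2.65). Type 1 neuron 9-1 fell inside the type 2 range and the other 4 lay above it. The difference was -2.32 in libraries over 20000000 counts and -1.43 in those under it. Plxna4 reached the highest plexin level in any neuron, 312 CPM in 1-2, and was detected in 4 neurons of each type (difference -1.26; 35.3 ± 33.3 CPM among type 2 neurons and 145 ± 136 CPM among type 1 neurons). Plxna1 was at 42.6 and 64.8 CPM in type 2 neurons 9-2 and 9-4 and at most 0.820 CPM in the other 3, against 6.82 to 184 CPM in 4 type 1 neurons and 0 in 1-1.

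Class A plexins as a group were detected in 4 type 2 and all 5 type 1 neurons. The exception was 10-1, where the 4 genes summed to 5.14 CPM, against 63.5 to 213 CPM in the other type 2 neurons and 58.1 to 581 CPM in type 1 neurons. Plxna3 did not separate the types (difference 0.67, detected in 3 neurons of each). Plxnc1, the receptor of Sema7a, was at 88.1, 10.5, 0.0276, 15.8 and 31.8 CPM in type 2 neurons, against 155 and 227 CPM in type 1 neurons 1-1 and 4-3 and at most 0.144 CPM in the other 3. Its mean CPM was higher in type 1 and its mean log2 level in type 2 (difference 0.75), so the sign depends on which is averaged. Plxnb2 was detected in 6-2 and 9-4 of type 2 (17.6 and 109 CPM) and 1-2 and 4-3 of type 1 (92.5 and 44.5 CPM). Microglia express Plxnb2, and 3 of those 4 neurons had the highest microglial sums, while 4-3 had 0.306 CPM; the part of microglial RNA in Plxnb2 was not tested. Plxnb1, the main Sema4d receptor, was detected in 1 neuron, at 33.6 CPM in 9-2.

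Eph receptors were found in every neuron, again in varying sets. Ephb1 was at 55.8, 32.9, 54.4, 16.7 and 8.55 CPM in type 2 neurons, against 9.88, 0.0722, 56.2, 73.2 and 175 CPM in type 1 neurons (difference 0.21). Mean CPM was lower in type 2 (33.7 ± 21.5 CPM) than in type 1 (62.9 ± 69.9 CPM, SD, n = 5 each), so here too the sign depends on which is averaged. The difference was -2.27 in the libraries over 20000000 counts, 2.70 in those under it and -3.76 among neurons numbered 9. Epha5 was detected in 4 neurons of each type, at up to 178 CPM in 9-2 and 59.0 CPM in 1-1 (difference 0.82). Epha10, a family member that lacks kinase activity, was at 51.2 CPM in type 2 neuron 10-1 and at most 0.0954 CPM in the other 4, against 112, 8.27 and 148 CPM in 1-2, 8-2 and 9-1 and 0 in the other 2 type 1 neurons. Its difference of -2.26 dropped below 4-fold without any 1 of 6-2 (-1.97), 10-3 (-1.98), 9-2 (-1.98), 1-2 (-1.42) or 9-1 (-1.32). Ephb6, also a kinase-dead member, was detected in 3 type 2 and 2 type 1 neurons (difference 1.05). Single neurons held most of the remaining Eph signal: Epha4 reached 93.4 CPM in 6-2 and 25.8 CPM in 9-1, Epha6 89.9 CPM in 10-3 and Epha3 72.8 CPM in 8-2. Epha7 was detected in 6-2 of type 2 (17.4 CPM) and in 4-3 and 8-2 of type 1 (40.5 and 78.1 CPM), while Epha2, Ephb2, Ephb3 and Ephb4 averaged under 1 CPM.

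Of the 4 Robo genes, 2 passed the filter. Robo2, a Slit receptor, was at 69.1 and 25.1 CPM in type 2 neurons 10-3 and 9-2 and at most 0.168 CPM in the other 3, against 95.8, 81.5 and 97.2 CPM in type 1 neurons 1-1, 1-2 and 9-1 and at most 0.204 CPM in the other 2 (difference -1.76). Robo1 was detected in 9-2 and 9-4 of type 2, at 52.5 and 14.9 CPM, while type 1 neurons had 2.74 CPM or less. Robo3 had a single count.

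Unc5 receptors, which carry the repulsive response to netrins and also bind the FLRT proteins, had the higher mean in type 1 in all 3 members that passed the filter. Unc5c (ENSMUSG00000059921, chromosome 3, 141465216 to 141834924, plus strand) was at 2.30, 12.9, 0, 0 and 0.0318 CPM in type 2 neurons, against 18.4, 124, 294, 0 and 30.4 CPM in type 1 neurons (difference -3.77). Type 1 neuron 8-2 had none, and the other 4 lay above all type 2 neurons. The difference was -1.52 in the libraries over 20000000 counts, short of 4-fold, and -4.76 in those under it. Unc5a was at 1.56, 65.1, 0, 0.245 and 0.191 CPM in type 2 neurons, against 8.01, 8.51, 36.8, 109 and 73.5 CPM in type 1 neurons (difference -3.34), so 10-1 alone put the types in overlap. Unc5d was at 0 to 4.52 CPM in type 2, against 158 CPM in 1-2, 203 CPM in 9-1 and 1.00 CPM or less in the other 3 type 1 neurons (difference -2.61; -1.60 without 1-2 and -1.51 without 9-1).

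Counted together, at least 1 of Unc5a, Unc5c and Unc5d was detected in 1 type 2 neuron (10-1) and in 5 of 5 type 1 neurons. Each of these genes was past 4-fold higher in type 1 in the same values, so the split in part restates those differences. No rate for other sets of genes was measured. The summed level of Unc5a, Unc5c and Unc5d was 78.3 CPM in 10-1 and between 0.193 and 4.77 CPM for the remaining type 2 neurons. In type 1 neurons it was 26.6 to 331 CPM. Unc5a shares 34 exon bases with Hk3, and Unc5c shares 118 with Gm15688, both on the opposite strand; Hk3 had 786 counts and Gm15688 34 in all libraries, and whether reads were counted by strand is not known. Dcc, the attractive netrin receptor, was at 42.2 CPM in type 2 neuron 9-2, 39.3 CPM in type 1 neuron 1-2 and at most 0.127 CPM elsewhere. Unc50, which only shares the name start, was detected in 5 type 2 and 4 type 1 neurons (127 ± 77.6 and 106 ± 60.2 CPM), with 0 in 1-2.

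**Figure D4:**
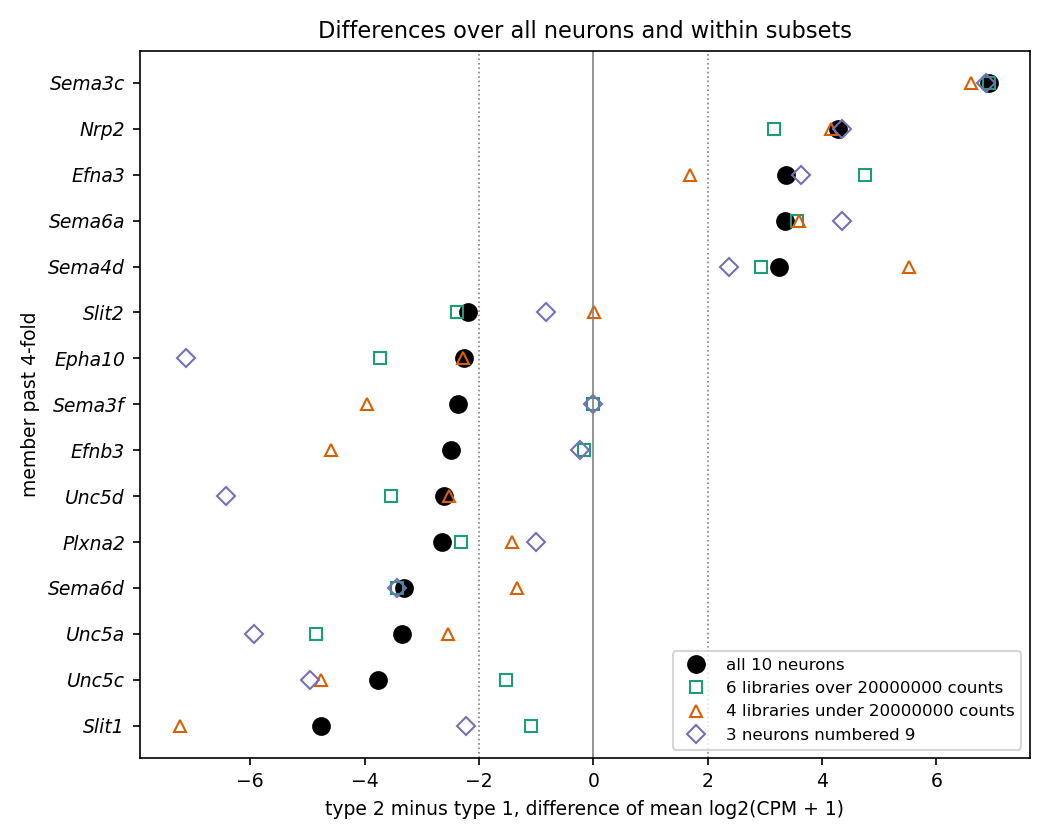
Mean log2(CPM + 1) of type 2 less that of type 1 for the 15 members past 4-fold (rows), over all 10 neurons (filled circles), the 6 libraries over 20000000 counts (squares), the 4 under it (triangles) and the 3 neurons numbered 9 (diamonds), with dotted lines at 4-fold. Sema3c, Nrp2, Sema6a, Sema4d, Unc5a, Unc5d and Epha10 lie beyond the line in all 4 sets. Slit1, Unc5c, Efnb3 and Sema3f lie beyond it in the lower depth set and not in the higher, and Efna3, Sema6d, Plxna2 and Slit2 in the higher and not in the lower.

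Compared per kilobase of exon, the members differed in level by type. In type 2 Sema3c was the most abundant of the 68, at 27.4 CPM per kilobase, followed by Efna3 at 12.6. In type 1 Slit1 (16.2), Sema6d (14.9), Efnb3 (14.5) and Efna5 (14.1 CPM per kilobase) were close together. These values assume even coverage along transcripts, which the count tables do not show.

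Ligand and receptor genes of the same system were detected in the same neuron in part of the cases. Over 9 textbook pairings and 5 neurons per type, both sides were detected in 26 of 45 cases in type 2 and 21 of 45 in type 1. At a detection level of 50 CPM type 1 had the higher count. A pairing holds 1 to 7 ligand genes and 1 to 9 receptor genes. Class 3 semaphorins and class A plexins each count in more than 1 pairing, and no rate for other gene sets was measured. A class 3 semaphorin and a neuropilin were found together in all 5 type 2 neurons, each time including Sema3c and Nrp2. The same held in 2 type 1 neurons (1-2 and 4-3), where the ligand was Sema3f and the receptor Nrp1. Nrp2, through which Sema3f mainly acts, was at 0 CPM in both of these type 1 neurons. Plxnd1, a main Sema3c receptor in the vasculature, had 0 counts in all 10 neurons. A class 6 semaphorin with a class A plexin was present in 4 type 2 and 5 type 1 neurons. Ephrin A with EphA was present in 5 and 4, and ephrin B with EphB or Epha4 in 2 and 4. Slit and Robo were detected together in 2 type 2 neurons (9-2 and 9-4) and 3 type 1 neurons (1-1, 1-2 and 9-1). Netrin receptors were detected in 2 type 2 and 5 type 1 neurons, with a netrin beside them in 10-1 alone.

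**Figure D5:**
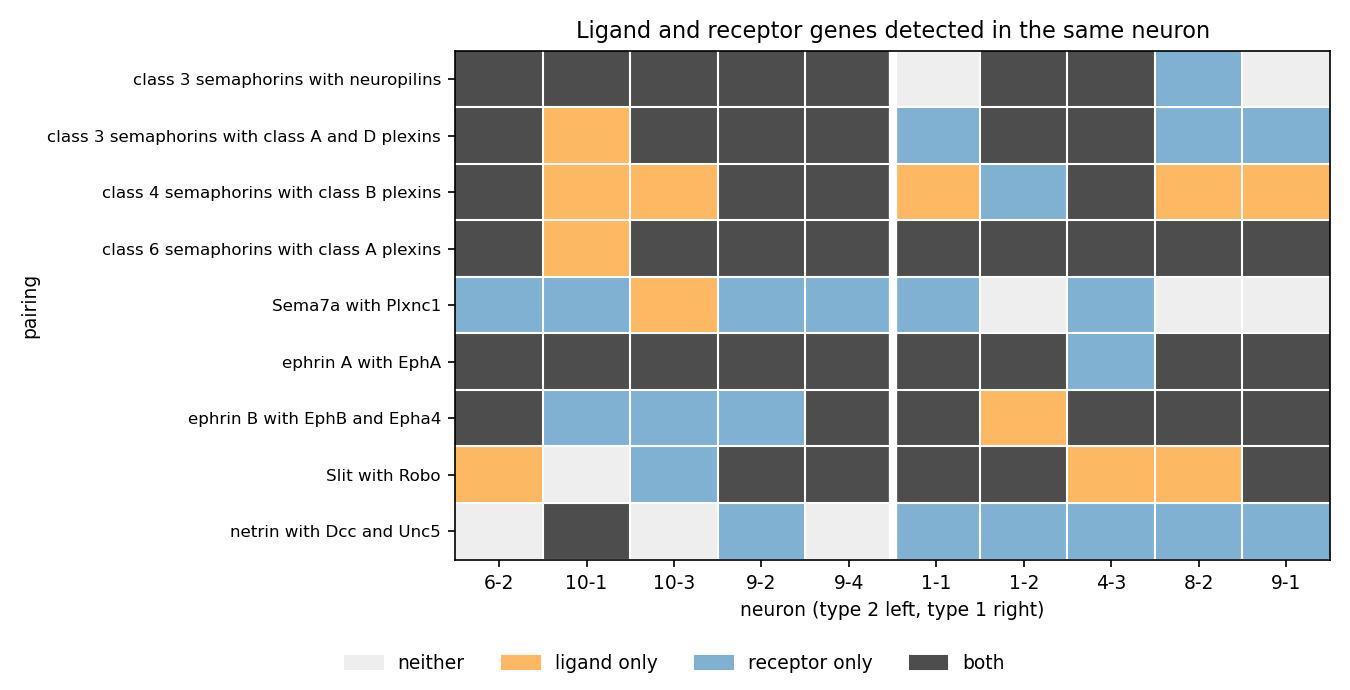
For 9 ligand and receptor pairings (rows) and each neuron (columns, type 2 left and type 1 right), whether the ligand, the receptor, both or neither was detected at 10 CPM or more. The semaphorin and neuropilin row is filled for both sides in all 5 type 2 neurons and in 2 of 5 type 1 neurons, and the netrin row shows the receptor alone in all 5 type 1 neurons.

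Beyond the ligands and receptors, 84 other genes of guidance signalling were examined as a list of co-receptors, adhesion molecules and cytoskeletal effectors. Of the 72 that passed the filter, 11 were past 4-fold higher in type 2 and 9 higher in type 1, beside 13.5% and 7.78% of all genes, with a median difference of 0.38 against 0.24 over all genes. Ablim1, an actin-binding protein of the UNC-115 family, was at 144, 131, 194, 136 and 109 CPM in type 2 neurons, against 137 CPM in 9-1, 9.89 CPM in 8-2 and 0 in the other 3 type 1 neurons (difference 5.03). Fzd3, a Wnt receptor needed for several axon tracts, differed by 4.74 (89.9 ± 61.7 CPM among type 2 neurons and 3.45 ± 7.53 CPM among type 1 neurons).

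Limk1, the kinase that phosphorylates cofilin, was at 3.31 to 52.7 CPM in type 2 and 0 to 0.789 CPM in type 1 (difference 3.83). It was the 1 of the 6 furthest apart whose types did not overlap. Over all genes, 1.44% had every type 2 neuron above every type 1 neuron, and the 6 were picked for their differences. Detection of Limk1 was reached in 3 type 2 and 0 type 1 neurons. Nck1, an adaptor used by Eph receptors and Dcc, was detected in 5 type 2 and 2 type 1 neurons (difference 3.87), as was Ntng1, a membrane-anchored netrin-G (difference 3.85). Ngef, an exchange factor that acts downstream of EphA receptors, stood on the other side. Its type 2 levels were 18.5 CPM in 10-3 and 0.127 CPM or less elsewhere, against 236, 0, 74.0, 39.9 and 75.6 CPM in type 1 neurons 1-1, 1-2, 4-3, 8-2 and 9-1 (difference -4.22).

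Of the 15 ligands and receptors past 4-fold, 10 stayed past it when each neuron was left out in turn. The other 5 were Efnb3, Epha10, Sema3f, Slit2 and Unc5d, all higher in type 1; Efnb3 was at -1.99 without 10-3 and -1.87 without 4-3. Without 6-2, 9-2 and 9-4, the type 2 neurons with the highest microglial sums, Sema3c (7.03), Nrp2 (5.16), Efna3 (4.61), Sema4d (3.08) and Sema6a (2.53) were still past 4-fold, while Unc5a (-1.91) and Epha10 (-0.58) were not. Type 1 neuron 1-2, with a microglial sum of 894 CPM, stayed in this comparison, and the part of microglial RNA was not tested. With 2 type 2 neurons left, 9 of 46 members were past 4-fold higher in type 2 and 14 higher in type 1, beside 18% and 15.9% of all 11251 genes.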

How the data were processed

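The data are 10 libraries of 1 neuron each. Per the file headers, the authors deposited raw counts for each Ensembl gene, without normalization. The submitters' processing notes name cutadapt 1.13, STAR, HTSeq 0.6.1p1 and DESeq2 with build mm10; the sources used here do not give the annotation release, the strand setting or how cDNA was amplified. DESeq2 was not used here.

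Symbols matched 24942 of 25006 identifiers. GENCODE M21 (GRCm38, the assembly mm10 names) gave gene types, coordinates and exon lengths. CPM was computed from library totals with Python 3.11.15 and pandas 2.3.3; TMM factors came from edgeR 4.0.16. The difference is that of mean log2(CPM + 1), for genes averaging 1 CPM or more. The procedure was tested on simulated counts with known 4-fold changes. Those counts were drawn around each gene's mean without added zeros. That test therefore does not cover genes that are at 0 in part of the neurons. Single cells with no animal named give no replicates, so no test was run. No library copied another (over 45 pairs, chi-square divided by its degrees of freedom was 619 or more). The 13 mitochondrial genes listed had 0 counts.

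Members and lists were chosen with earlier results of these data known. Named were the 26 members that 3 or more neurons of either type had detected, Ntn4 as the most abundant netrin per kilobase, and every member past 4-fold, 30 in all, and the 6 other guidance genes furthest apart; members outside the rule are named after their values were seen. Alternatives were other pseudocounts, scalings, filters, detection levels, thinning, medians, neurons numbered 9 and leaving out each neuron; depth sets, the microglial neurons and leaving out Unc50 and Unc5cl were chosen after seeing the data.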

Additional observations from a re-analysis of the deposited data

Results flagged for a closer look

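In 11 of 62 groups examined (each named member in each type, and the number of members detected), 1 of 5 neurons stood apart from the other 4 on the log2 scale by Dixon's ratio at its 95% critical value of 0.71. That limit is set so that chance gives about 1 in 20 groups when values are independent and normal. Levels here lay mostly at 10 CPM or more or under 1 CPM. The chance rate for such values was not measured, and no excess is read from the number. Among type 2 neurons, 10-1 stood apart for Sema6a (2.57 CPM, the lowest), Unc5a (65.1 CPM, the highest) and Epha10 (51.2 CPM, the highest), and 9-2 for Unc5d (4.52 CPM, the highest). Among type 1 neurons, 1-2 stood apart for Efna3 (30.5 CPM) and Sema4d (2.45 CPM), both the highest, and for Unc50 (0 CPM, the lowest). Neuron 1-1 was the highest for Sema6a (32.1 CPM), 8-2 for Nrp2 (21.3 CPM) and 9-1 for Ntn4 (0.223 CPM), and 4-3 was the lowest for Efna5 (0 CPM). For Nrp2, Efna3 and Sema6a the type 1 neuron that stood apart is the only type 1 neuron within the type 2 range.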

How the results depend on the processing

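With a pseudocount of 10 the counts past 4-fold were 2 members higher in type 2 and 3 higher in type 1 (4 and 2 in the other guidance list), beside 2.31% and 1.59% of all genes. With 0.1 they were 10 and 12 (18 and 14), beside 24.4% and 12.5%. With medians over neurons, 10 members and 17 other guidance genes were higher in type 2 and 13 members in type 1, beside 16.8% and 10.4%. Among neurons numbered 9, 18 of 43 members were higher in type 2 and 13 in type 1, beside 34.0% and 20.5%, with medians of 0.48 for the members, -0.19 for the other list and 0.53 for all genes. In libraries over 20000000 counts, 8 members were higher in type 2 and 12 in type 1, beside 14.9% and 17.6%, and the other list gave 7 higher in type 2 and 16 in type 1. In those under it, 10 of 41 members and 25 other genes were higher in type 2 and 12 members in type 1, beside 33.4% and 15.1%, the medians were -0.87 for the members and 0.69 for all genes, and Slit2 changed sign, to 0.01. Without 6-2, 9-2 and 9-4, 9 members were higher in type 2 and the median was -0.98, against -0.11 for all genes. Leaving out single neurons gave 5 to 7 members higher in type 2, 7 to 11 higher in type 1 and medians of -0.41 (without 9-4) to 0.29, and in the other list 8 to 15, 7 to 11 and 0.14 to 0.45; the cause of these shifts was not tested. TMM scaling moved the median of all genes to 0.39, against 0.24, and left the members' counts at 5 and 10. At 1 CPM, 26.6 members were detected per type 2 neuron and 24.0 per type 1 neuron; at 50 CPM these were 9.00 and 12.2, and both sides of a pairing were found in 10 and 12 of 45 cases. Sema3c and Nrp2 were past 4-fold under all 20 alternatives computed for single members. No paired analysis was possible because the replicate numbers were given in accession order and pair no neurons. Libraries differ in depth between types, and thinning to the smallest left the counts at 5 and 10. Thinning evens out the number of counts only, so it cannot address the unlike differences within the 2 depth sets.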
